A study of Homo sapiens with 18 samples.

Results

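The 9 genes described here encode transcription factors of the luminal breast epithelium that work alongside the oestrogen receptor: FOXA1, GATA3, XBP1, the AP-2 factors TFAP2A, TFAP2B and TFAP2C, the ETS factors SPDEF and ELF3, and GRHL2. They were chosen by name, from their known role and with earlier results of these data known, and each has 1 row among the 60656 gene rows of the count table. RNA was sequenced from CAMA-1 and ZR-75-1, established human breast cancer cell lines that carry the oestrogen receptor and are labelled wild-type and parental. Each line was grown for 5 days with abemaciclib at 500 nM, with palbociclib at 500 nM or with an equal volume of the solvent DMSO, in RPMI-1640 medium with serum. There were 3 libraries in each of the 6 groups, 18 in all, described in the study's methods as independent biological replicates of an experiment done once. Both drugs block the cell cycle kinases CDK4 and CDK6, which keeps the retinoblastoma protein Rb active and stops cells in G1, and the study asked what active Rb does to oestrogen-responsive transcription in such cells. Each line is 1 model, so a difference between the lines is a difference between 2 cultures and not between kinds of tumour.

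Luminal cells line the ducts of the breast, and most breast tumours with the oestrogen receptor keep their gene programme. FOXA1 is a pioneer factor that opens chromatin at enhancers where the oestrogen receptor binds, and GATA3 and the AP-2 factors occupy many of the same enhancers. XBP1 becomes an active factor when the endoplasmic reticulum sensor IRE1 (ERN1) splices its transcript, and is also an oestrogen-responsive gene, while SPDEF, ELF3 and GRHL2 maintain secretory and epithelial features.

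The libraries held 2308442 to 4146549 reads assigned to genes. Levels are given in CPM, the counts scaled to a common library size by TMM over the 18 libraries, in which 1 count was worth 0.241 to 0.433 CPM before that scaling. Levels are compared for 1 gene between groups, except for the 3 AP-2 genes, whose CPM is also summed. All 15 luminal markers checked (EPCAM, keratins KRT7, KRT8, KRT18 and KRT19, and others) passed 3 counts in at least 1 library of each line, with a summed level of 4243 to 4457 CPM in CAMA-1 with DMSO and 6354 to 6554 CPM in ZR-75-1 with DMSO. Of 16 basal and mesenchymal markers, 9 never passed 3 counts in any CAMA-1 library and 7 never did in any ZR-75-1 library, and KRT5 and SOX10 had 0 counts in all 18. Others were present in ZR-75-1, where 5 had enough counts to be tested (FOXC1, TWIST1, CDH2, FN1 and ACTA2). With DMSO all 5 were higher in ZR-75-1 than in CAMA-1 (median log2 difference 3.28, edgeR adjusted p under 0.05), where 31.5% of all genes were. Of 9 immune and stromal markers, 7 and 8 never passed 3 counts in CAMA-1 and ZR-75-1, and CD3E and DCN were at 0 throughout. The share of counts from the 37 mitochondrial genes was 14.8 to 16.6% in CAMA-1 with DMSO, 23.4 to 26.1% with abemaciclib and 22.9 to 24.9% with palbociclib, and 17.3 to 22.6% over the ZR-75-1 groups. Without those genes in the table, every call given here for the 9 genes was the same. In bulk RNA, fewer cells of a kind and less RNA per cell cannot be told apart.

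Of the 9 genes, 8 were called against DMSO with at least 1 of the drugs in at least 1 line. TFAP2B, which could be tested in ZR-75-1 only, was not called. The share of all genes called in at least 1 of these comparisons was not counted, so the 8 of 9 has no background to be read against. Log2 fold changes against DMSO lay between -0.34 (SPDEF with abemaciclib in ZR-75-1) and 1.23 (ELF3 with palbociclib in CAMA-1). With abemaciclib in CAMA-1, 8 of the 9 genes passed the filter on low counts, 4 were higher than with DMSO (XBP1, TFAP2A, ELF3 and GRHL2) and 2 were lower (GATA3 and TFAP2C), while of all 11053 genes tested 20.3% were higher and 20.1% lower. With palbociclib in CAMA-1, 2 of 8 were higher (XBP1 and ELF3) and 3 lower (GATA3, TFAP2C and SPDEF), against 18.4% and 18.7% of all genes. With abemaciclib in ZR-75-1, all 9 genes were tested, 3 were higher (FOXA1, GATA3 and TFAP2A) and 2 lower (SPDEF and ELF3), against 17.9% and 18.3% of 11017 genes. With palbociclib in ZR-75-1, 1 was higher (ELF3) and 2 were lower (GATA3 and TFAP2C), against 14.5% and 13.4%. The median log2 fold change of the members tested was 0.22, 0.039, 0.075 and -0.16 in these comparisons in turn, where the median of all genes tested lay between -0.01 and 0.01. Calls are at an adjusted p under 0.05 (edgeR's quasi-likelihood test, Benjamini-Hochberg over all genes tested), and a value after ± is the SD of 3 libraries. Whether groups of 3 libraries overlap is given as a description and is not a test. The share of all genes whose groups did not overlap was not counted, so a lack of overlap adds no support to an uncalled value.

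**Figure D1:**
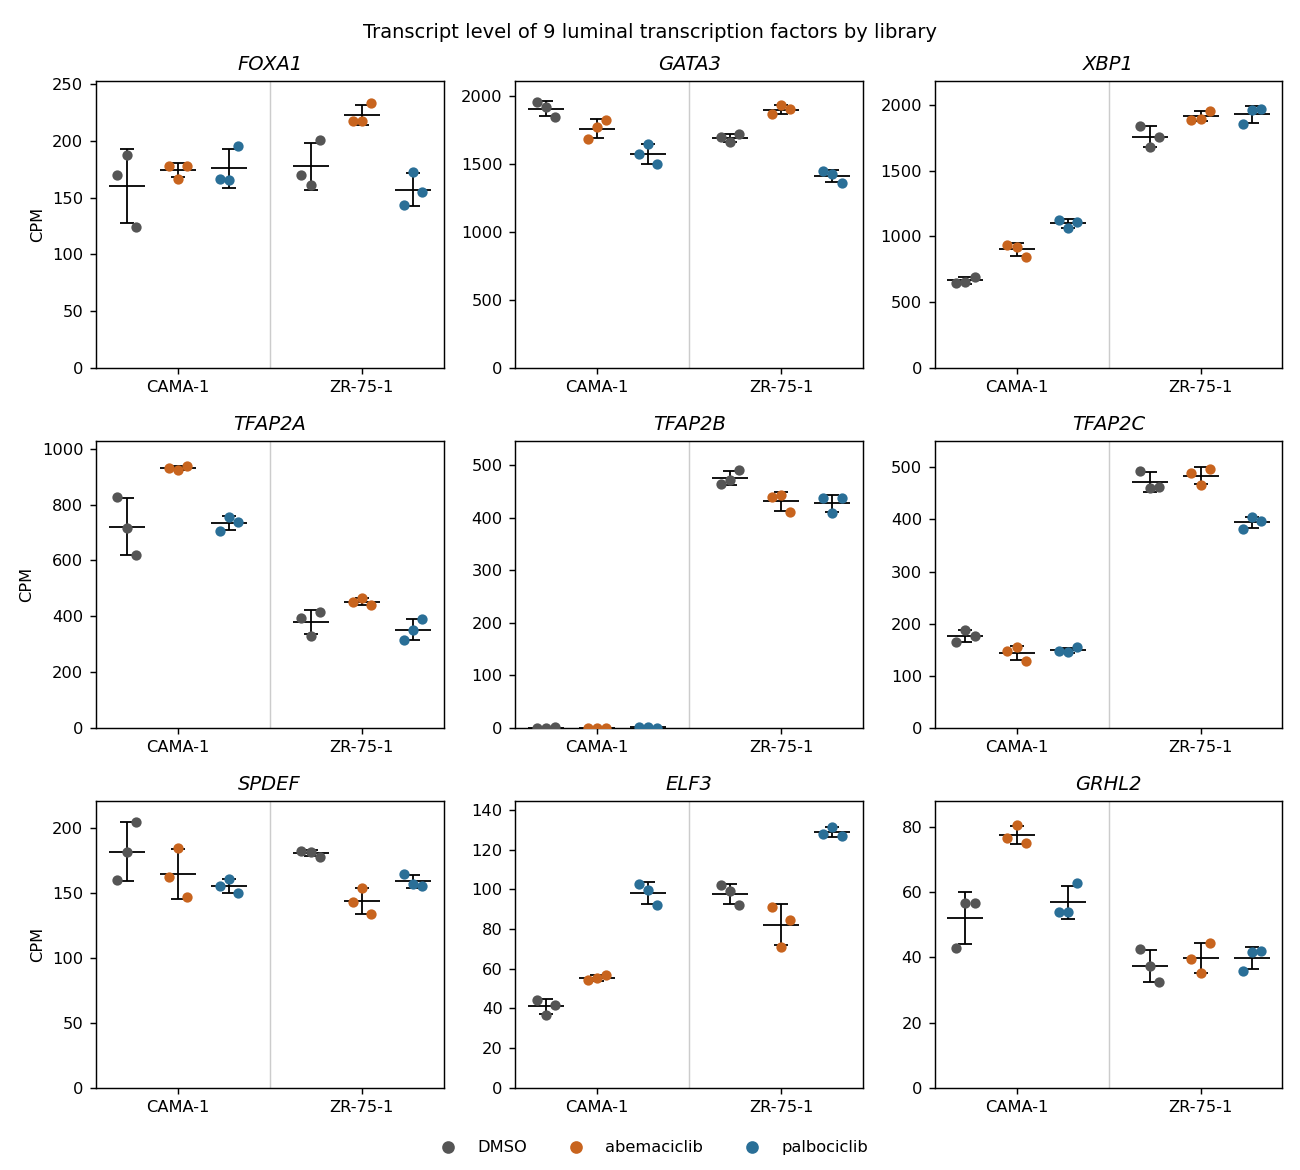
Level of each of the 9 genes in CPM (vertical axis, from 0) in the 3 libraries of each group, with DMSO in grey, abemaciclib in orange and palbociclib in blue; each point is 1 library, the long bar is the group mean and the whisker is 1 SD. TFAP2B lies at or near 0 (0 to 4 counts) in the 9 CAMA-1 libraries and between 408 and 490.0 CPM in the 9 ZR-75-1 libraries, and ELF3 is highest with palbociclib in both lines.

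The sequences upstream of 3 of these genes are shown because their levels vary the most here, XBP1 and ELF3 with treatment and TFAP2B between the lines. Each is the stretch of 250 bases before an annotated RefSeq transcription start, on the strand of the gene and on build GRCh38.p14, at chr22:28800570-28800819 on the minus strand for XBP1, chr1:202010337-202010586 on the plus strand for ELF3 and chr6:50818621-50818870 on the plus strand for TFAP2B. Capitals mark CCAAT (the CCAAT box), CCACG and TATAAA (the TATA box), searched on both strands, so that TTTATA is the TATA box on the other strand.
XBP1: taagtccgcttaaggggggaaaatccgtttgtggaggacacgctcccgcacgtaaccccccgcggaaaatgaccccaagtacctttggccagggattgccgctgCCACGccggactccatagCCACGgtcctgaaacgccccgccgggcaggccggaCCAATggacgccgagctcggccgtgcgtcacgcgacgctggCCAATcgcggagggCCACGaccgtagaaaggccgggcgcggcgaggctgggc
ELF3: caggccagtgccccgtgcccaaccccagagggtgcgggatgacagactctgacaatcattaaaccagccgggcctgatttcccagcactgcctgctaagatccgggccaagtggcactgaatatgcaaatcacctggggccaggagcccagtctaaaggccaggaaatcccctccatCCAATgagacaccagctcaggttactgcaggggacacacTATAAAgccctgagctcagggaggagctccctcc
TFAP2B: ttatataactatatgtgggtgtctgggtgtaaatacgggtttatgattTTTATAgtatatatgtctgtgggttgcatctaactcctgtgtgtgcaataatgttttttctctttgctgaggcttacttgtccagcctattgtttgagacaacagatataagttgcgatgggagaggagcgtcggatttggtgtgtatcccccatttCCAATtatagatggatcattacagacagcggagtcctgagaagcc
In the XBP1 window, CCAAT at 52 to 48 bases before the start and CCACG at 38 to 34 bases before it stand 9 bases apart, the arrangement known as the endoplasmic reticulum stress element. That spacing was found on either strand in 26 of 34943 promoter windows of the same length, 0.0744%, and in no window of the other members that had one. ELF3 had TATAAA at 34 to 29 bases before its start, and TATAAA or its reverse occurred in 10.8% of all windows. CCAAT occurred in 32.0% of all windows, and each of the 3 windows shown held it. None of the 3 held AGATAA (bound by factors of the GATA family, in 9.19% of all windows), TGTTTAC (forkhead factors, 2.98%), GCCNNNGGC (AP-2, 19.7%), AGGTCA (the repeated unit of an oestrogen response element, 12.1%), CCGGAAGT (ETS factors, 3.39%), TTTCGCGC or TTTGGCGC (E2F, 0.956%) or TGACGTGG (an XBP1 element, 0.615%). At other annotated starts of members, GCCNNNGGC stood upstream of 3 of the GATA3 starts and of a second XBP1 start, and AGGTCA upstream of 1 TFAP2A start at 11 to 6 bases before it. The RefSeq table held windows for 7 of the 9 genes, 14 windows in all. All 3 starts lie within the bounds of their genes given further on. The ELF3 window lies wholly inside those bounds, and other starts of ELF3 are not shown. The XBP1 and TFAP2B windows lie partly inside, at the end nearest the start. These are matches of letters, with no measurement of binding in these data.

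FOXA1, the pioneer factor (chr14:37589552-37596059, minus strand, GRCh38), was higher with abemaciclib in ZR-75-1 and in no other comparison with DMSO. In ZR-75-1 it read 170.2, 161 and 201 CPM with DMSO, 217, 218 and 233 with abemaciclib and 144, 173 and 155 with palbociclib. The 3 abemaciclib libraries lay above all others of the line, and the palbociclib and DMSO libraries overlapped. Its log2 fold change was 0.32 (standard error 0.085, adjusted p = 0.002) with abemaciclib, 1.25-fold, and -0.18 (95% interval -0.36 to -0.0082, adjusted p = 0.11) with palbociclib, where leaving out DMSO replicate 2 or palbociclib replicate 2 gave a call (-0.25 and -0.26, adjusted p = 0.043 and 0.047). In CAMA-1 it read 169.7, 188 and 124 CPM with DMSO, 178, 167 and 177 with abemaciclib and 166, 165 and 196 with palbociclib. These groups overlapped, and 1 DMSO library, replicate 3, was well below the other 8 of the line. The log2 fold change there was 0.10 (95% interval -0.10 to 0.30, adjusted p = 0.46) with abemaciclib and 0.11 (95% interval -0.093 to 0.31, adjusted p = 0.43) with palbociclib, and without that library the values were -0.071 and -0.065, adjusted p = 0.57 and 0.62 (edgeR).

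GATA3, the zinc-finger factor that specifies luminal cells (chr10:8045378-8075198, plus strand), fell with palbociclib in both lines. In CAMA-1 it read 1951, 1917 and 1843 CPM with DMSO, 1681, 1772 and 1823 with abemaciclib and 1573, 1643 and 1494 with palbociclib. The 3 treatments did not overlap, with DMSO highest and palbociclib lowest. This was a log2 fold change of -0.31 (standard error 0.057, adjusted p = 2.2e-05) with palbociclib and -0.15 (standard error 0.057, adjusted p = 0.036) with abemaciclib. ZR-75-1 libraries read 1693, 1659 and 1716 CPM with DMSO, 1863, 1929 and 1904 with abemaciclib and 1444, 1422 and 1360.4 with palbociclib. Here too the treatments did not overlap, but the order was different, with abemaciclib highest, DMSO between and palbociclib lowest. This gave -0.27 (standard error 0.063, adjusted p = 7.2e-04) with palbociclib and 0.16 (standard error 0.062, adjusted p = 0.038) with abemaciclib. Both abemaciclib calls of GATA3 rest on small changes. In CAMA-1 the call was lost without DMSO replicate 1 or 2 or abemaciclib replicate 1 or 2 (-0.11 to -0.16, adjusted p = 0.058 to 0.20), with no filter on low counts (adjusted p = 0.082) and with 18 libraries in 1 fit (adjusted p = 0.12), and in ZR-75-1 whichever of the 6 libraries was left out (0.15 to 0.18, adjusted p = 0.055 to 0.083).

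The oestrogen receptor gene itself, ESR1 (chr6:151656691-152129619, plus strand), rose with both drugs in both lines. It read 38.2, 45.1 and 58.8 CPM in CAMA-1 with DMSO, 83.9, 92.0 and 93.1 with abemaciclib and 92.1, 106 and 78.3 with palbociclib. The receptor gene in ZR-75-1 read 168, 186 and 159.7 CPM with DMSO, 366, 314 and 326 with abemaciclib and 311, 287 and 279.9 with palbociclib. Neither DMSO group overlapped a treated group of its line. With abemaciclib and then palbociclib, this was 0.86 (standard error 0.13, adjusted p = 2.8e-07) and 0.91 (standard error 0.12, adjusted p = 7.0e-08) on the log2 scale in CAMA-1, and 0.96 (standard error 0.080, adjusted p = 3.9e-15) and 0.77 (standard error 0.080, adjusted p = 1.8e-11) in ZR-75-1. Of 18 genes for steroid receptors and their coregulators, with ESR1 among them, 7 rose and 1 fell with abemaciclib in CAMA-1 (median log2 fold change 0.24), 6 and 1 with palbociclib (median 0.12), 4 and 2 with abemaciclib in ZR-75-1 (median -0.033) and 6 and 5 with palbociclib (median 0.040). Of all genes tested, 20.3%, 18.4%, 17.9% and 14.5% rose in these comparisons in turn, and 20.1%, 18.7%, 18.3% and 13.4% fell. NRIP1, a corepressor that is itself induced by oestrogen, rose in all 4, by 1.11, 1.25, 0.50 and 0.78. The progesterone receptor PGR, a classical oestrogen target, rose by 1.02 and 1.08 in CAMA-1 and 0.67 with palbociclib in ZR-75-1.

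The AP-2 factors bind GC-rich elements as dimers and regulate ERBB2, RET and ESR1 in breast cells. TFAP2A (chr6:10393186-10419659, minus strand) was called higher with abemaciclib in both lines, and neither of the other AP-2 genes was called higher with a drug. It read 826, 718 and 620.3 CPM in CAMA-1 with DMSO, 933, 923 and 938 with abemaciclib and 707, 755 and 739.8 with palbociclib. Levels in ZR-75-1 were 393, 329.9 and 415 CPM with DMSO, 451, 466 and 442 with abemaciclib and 314, 351 and 391 with palbociclib. Within each line the 3 abemaciclib libraries were above the 6 others, and DMSO and palbociclib libraries overlapped. The log2 fold change in CAMA-1 was 0.34 (standard error 0.070, adjusted p = 1.2e-04) with abemaciclib and -0.0053 (95% interval -0.15 to 0.14, adjusted p = 0.96) with palbociclib, and in ZR-75-1 0.25 (standard error 0.077, adjusted p = 0.0086) and -0.11 (95% interval -0.27 to 0.044, adjusted p = 0.3). Without DMSO replicate 2 the ZR-75-1 value with abemaciclib was 0.16, adjusted p = 0.14.

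TFAP2C (chr20:56629306-56639283, plus strand), the AP-2 factor most closely tied to the oestrogen receptor programme, fell in CAMA-1 with either drug and in ZR-75-1 with palbociclib. CAMA-1 libraries read 165, 188 and 176 CPM with DMSO, 147, 155 and 129 with abemaciclib and 147, 146 and 155 with palbociclib. The DMSO libraries were the 3 highest, and the treated groups overlapped each other. ZR-75-1 libraries read 493, 461 and 462 CPM with DMSO, 489.9, 466 and 497 with abemaciclib and 382, 404 and 397 with palbociclib, and only the palbociclib libraries were set apart, below the rest. On the log2 scale TFAP2C changed by -0.33 (standard error 0.086, adjusted p = 0.0016) with abemaciclib and -0.27 (standard error 0.084, adjusted p = 0.0086) with palbociclib in CAMA-1. The values in ZR-75-1 were 0.029 (95% interval -0.11 to 0.17, adjusted p = 0.78) and -0.26 (standard error 0.068, adjusted p = 0.0021). Without DMSO replicate 2, the palbociclib value in CAMA-1 was -0.23, adjusted p = 0.057.

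TFAP2B (chr6:50818723-50847619, plus strand) was read above the floor of 3 counts in every ZR-75-1 library and in 1 CAMA-1 library, at 4 counts. Its counts in CAMA-1 were 0, 1 and 3 with DMSO, 1, 0 and 1 with abemaciclib and 2, 4 and 0 with palbociclib, a total of 12, so it was not tested in that line and no fold change with treatment is given there. In ZR-75-1 the counts were 1421, 1541 and 1424 with DMSO, 1327, 1281 and 1044 with abemaciclib and 1564, 1208 and 1487 with palbociclib, a total of 12297. In CPM these were 463, 471 and 490.0, 439, 443 and 410.5 and 437, 408 and 436. Every DMSO library of ZR-75-1 was above every treated one, but the change did not pass the test, with log2 fold changes of -0.15 (95% interval -0.28 to -0.0096, adjusted p = 0.089) and -0.16 (95% interval -0.29 to -0.019, adjusted p = 0.082). With DMSO, the ratio of TFAP2B counts per assigned read in ZR-75-1 to that in CAMA-1 was 1114, with an exact 95% interval for counting error of 435 to 4090 (4386 counts against 4). With abemaciclib it was 2008 (555 to 16587, 3652 against 2 counts) and with palbociclib 743 (341 to 2025, 4259 against 6 counts). The reads hold no molecular identifiers that the sources name, so these intervals cover counting error only.

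**Figure D2:**
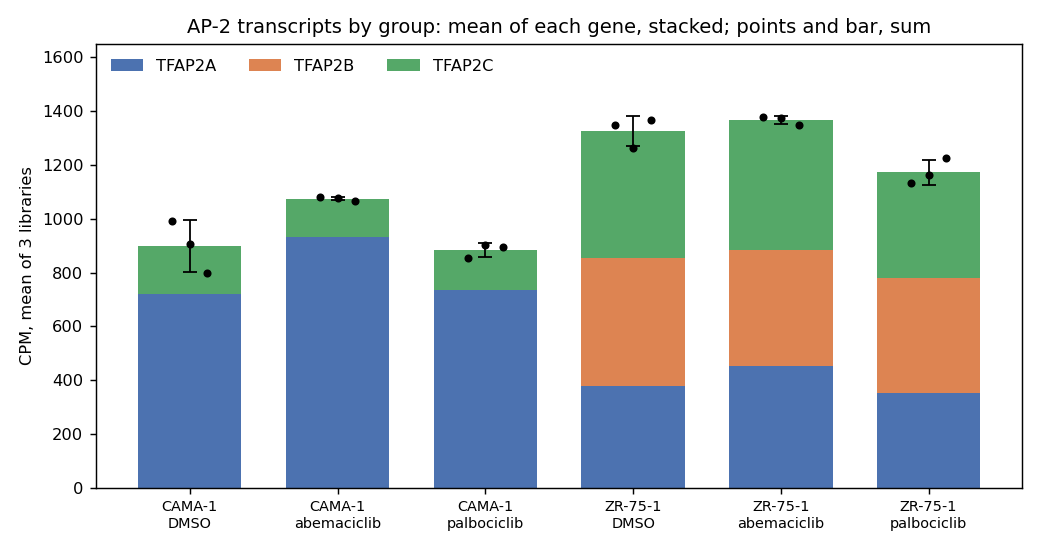
Mean CPM of TFAP2A (blue), TFAP2B (orange) and TFAP2C (green) stacked by group (vertical axis from 0; mean of 3 libraries), with the sum of the 3 genes in each library as points and its SD as a bar. TFAP2A makes up most of the CAMA-1 bars and under 35% of the ZR-75-1 bars, where TFAP2B and TFAP2C fill the rest.

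The makeup of AP-2 transcripts differed between the lines. Of the summed CPM of the 3 genes, TFAP2A took 80.1% ± 2.91 in CAMA-1 with DMSO and 28.6% ± 2.17 in ZR-75-1 with DMSO (n = 3 each). TFAP2B took 0.0410% ± 0.0432 and 35.8% ± 1.49 and TFAP2C 19.8% ± 2.87 and 35.6% ± 1.60. With abemaciclib the share of TFAP2A was 86.6% ± 1.15 in CAMA-1 and 33.1% ± 0.678 in ZR-75-1, and with palbociclib 83.1% ± 0.526 and 29.9% ± 2.13, and the lowest CAMA-1 library was above the highest ZR-75-1 library. The sum itself was 898 ± 96.9 CPM in CAMA-1 and 1326 ± 56.7 CPM in ZR-75-1 with DMSO. The protocol reads the 3′ end of each transcript, so these sums were not divided by gene length. Of 6 tested AP-2 partners and targets, 4 were higher with abemaciclib in CAMA-1 (median 0.59), 2 with palbociclib (median 0.31), 2 with abemaciclib in ZR-75-1 (median 0.22) and 1 with palbociclib (median -0.20), and none was lower. Of all genes tested, 20.3%, 18.4%, 17.9% and 14.5% were higher in these comparisons in turn, and 20.1%, 18.7%, 18.3% and 13.4% lower. ERBB2, which encodes the receptor HER2, rose by 0.88 and 1.17 in CAMA-1 and by 0.46 with abemaciclib in ZR-75-1. CITED4, a coactivator of AP-2 factors, rose by 1.16 and 1.63 in CAMA-1. The receptor tyrosine kinase gene RET rose in ZR-75-1, from 7.17, 7.94 and 7.57 CPM with DMSO to 34.4, 33.2 and 38.1 with abemaciclib and 34.7, 29.7 and 26.1 with palbociclib (log2 fold change 2.20 and 1.99), and was not called in CAMA-1, where it read 11.5, 16.4 and 8.93 CPM with DMSO, 9.50, 5.56 and 10.6 with abemaciclib and 11.5, 7.38 and 10.2 with palbociclib.

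XBP1 (chr22:28794555-28800597, minus strand) rose with both drugs in CAMA-1, and its level there was ordered by treatment. It read 647, 653 and 693 CPM with DMSO, 935, 922 and 841 with abemaciclib and 1125, 1060.0 and 1110.3 with palbociclib. No 2 of these groups overlapped. The changes were 1.32-fold with abemaciclib and 1.62-fold with palbociclib, or 0.40 (standard error 0.061, adjusted p = 5.9e-07) and 0.69 (standard error 0.061, adjusted p = 1.2e-12) on the log2 scale. In ZR-75-1 XBP1 read 1839, 1679.6 and 1755 CPM with DMSO, 1888, 1895 and 1956 with abemaciclib and 1855, 1961 and 1967 with palbociclib. All treated libraries were above all DMSO libraries of that line, but neither change passed the test, at 0.11 (95% interval -0.013 to 0.24, adjusted p = 0.16) and 0.13 (95% interval 0.0014 to 0.25, adjusted p = 0.13). The lowest XBP1 library of ZR-75-1 was above the highest of CAMA-1. The table counts the gene as a whole, so spliced and unspliced XBP1 transcripts were not separated.

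Genes of the XBP1 pathway and the unfolded protein response were also called in ZR-75-1, where XBP1 itself was not. Of 17 such genes, 11 were higher with abemaciclib and 10 with palbociclib in ZR-75-1, and none was lower (medians 0.45 and 0.47). In CAMA-1, abemaciclib gave 6 higher and 2 lower and palbociclib 4 higher and 2 lower (medians 0.17 and 0.089). The background in ZR-75-1 was 17.9% of tested genes higher and 18.3% lower for abemaciclib, then 14.5% higher and 13.4% lower for palbociclib. The CAMA-1 background, in the same order, was 20.3%, 20.1%, 18.4% and 18.7%. CRELD2, a chaperone-like protein of the endoplasmic reticulum, read 62.6, 60.5 and 49.2 CPM in ZR-75-1 with DMSO, 87.3, 99.7 and 111 with abemaciclib and 114, 111 and 118 with palbociclib, every treated library above DMSO, a log2 fold change of 0.78 (standard error 0.11, adjusted p = 7.6e-08) and 0.99 (standard error 0.11, adjusted p = 1.1e-10). In CAMA-1 it read 57.6, 47.7 and 47.6, 50.1, 31.2 and 44.2 and 50.6, 44.5 and 39.3 CPM and was not called. SSR1 and SEC61B, parts of the translocation machinery, rose by 0.70 and 0.66 with abemaciclib in ZR-75-1, and SRPRB, a signal recognition particle receptor subunit, and the chaperone HYOU1 by 0.60 and 0.57 with palbociclib. In CAMA-1 the largest rise with abemaciclib was that of ERN1, the kinase that splices XBP1, at 1.46 (standard error 0.50, adjusted p = 0.017), on few counts (5, 5 and 7 with DMSO, 24, 8 and 12 with abemaciclib). The co-chaperone gene DNAJB9 rose by 1.04 and 1.08 with the 2 drugs, although 1 abemaciclib library, replicate 2, had fewer counts than any DMSO library (32, 32 and 34 counts with DMSO, 108, 28 and 55 with abemaciclib). SDF2L1, a chaperone component, was lower with both, at -0.55 and -0.60. The difference between the lines was itself called for 8 of the 17 genes with abemaciclib, all with the higher response in ZR-75-1, and for 6 in that direction and 1 in the other with palbociclib. Of all genes tested, 8.19% had a higher response in ZR-75-1 and 10.0% a lower one with abemaciclib, and 10.0% and 10.3% with palbociclib.

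ELF3, an ETS factor of differentiating epithelia (chr1:202007945-202017183, plus strand), gave the largest change with a drug among the 9 genes, and the drugs differed. In CAMA-1 it read 44.2, 36.7 and 41.9 CPM with DMSO, 54.1, 55.2 and 57.0 with abemaciclib and 103, 99.8 and 91.9 with palbociclib. ZR-75-1 had 102, 99.0 and 92.2 CPM with DMSO, 91.2, 71.0 and 84.5 with abemaciclib and 128, 131 and 127 with palbociclib. Within each line the 3 treatments did not overlap and palbociclib was highest, but abemaciclib lay above DMSO in CAMA-1 and below it in ZR-75-1. ELF3 reached 1.32-fold its DMSO level with abemaciclib and 2.34-fold with palbociclib in CAMA-1, 0.40 (standard error 0.12, adjusted p = 0.0059) and 1.23 (standard error 0.11, adjusted p = 2.5e-12) on the log2 scale. The same values in ZR-75-1 were -0.26 (standard error 0.10, adjusted p = 0.043) and 0.39 (standard error 0.10, adjusted p = 0.0013). The fall with abemaciclib in ZR-75-1 was lost in DESeq2 (adjusted p = 0.14), with upper-quartile scaling, with no filter on low counts or with all 18 libraries in 1 edgeR fit (adjusted p = 0.053 to 0.10), and without DMSO replicate 1 or 2 or abemaciclib replicate 2 or 3 (-0.15 to -0.27, adjusted p = 0.070 to 0.33).

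SPDEF, the ETS factor of secretory luminal cells (chr6:34537802-34556333, minus strand), was lower with treatment where it was called. In ZR-75-1 SPDEF read 183, 181 and 178 CPM with DMSO, 143, 154 and 134 with abemaciclib and 165, 157 and 155 with palbociclib. All 6 treated libraries were below the 3 DMSO libraries, and those of abemaciclib were the lowest. The log2 value was -0.34 (standard error 0.084, adjusted p = 9.9e-04) with abemaciclib and -0.19 (95% interval -0.35 to -0.024, adjusted p = 0.08) with palbociclib. In CAMA-1 SPDEF read 159.8, 182 and 205 CPM with DMSO, 162, 185 and 147 with abemaciclib and 155, 161 and 149.9 with palbociclib, and all 3 treatments overlapped. With abemaciclib the log2 value was -0.19 (95% interval -0.37 to -0.0068, adjusted p = 0.092), called at -0.28 without DMSO replicate 1 or abemaciclib replicate 2 (adjusted p = 0.021 and 0.026). With palbociclib it was -0.26 (standard error 0.089, adjusted p = 0.017), and the call was lost without DMSO replicate 3 (-0.17, adjusted p = 0.14), palbociclib replicate 1 (-0.26, adjusted p = 0.056) or palbociclib replicate 3 (-0.24, adjusted p = 0.067).

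GRHL2, a grainyhead factor that keeps epithelial junction genes active, rose with abemaciclib in CAMA-1 only among the 4 comparisons with DMSO. It read 43.0, 56.7 and 56.6 CPM there with DMSO, 76.5, 80.4 and 75.0 with abemaciclib and 54.0, 53.9 and 62.7 with palbociclib. The abemaciclib libraries were above the other 6, which overlapped. ZR-75-1 gave 42.4, 37.3 and 32.3 CPM with DMSO, 39.3, 35.3 and 44.4 with abemaciclib and 35.8, 41.6 and 42.0 with palbociclib, with overlap of all groups. In CAMA-1 its log2 fold change was 0.53 (standard error 0.12, adjusted p = 3.0e-04) with abemaciclib and 0.084 (95% interval -0.16 to 0.33, adjusted p = 0.63) with palbociclib. In ZR-75-1, at 94 to 143 counts per library, it was 0.075 (95% interval -0.22 to 0.37, adjusted p = 0.74) and 0.082 (95% interval -0.21 to 0.37, adjusted p = 0.73). Of 12 epithelial genes under GRHL2 or linked to it, 7 rose and 2 fell with abemaciclib in CAMA-1 (median log2 fold change 0.37), 7 and 1 with palbociclib (median 0.26), 4 and 2 with abemaciclib in ZR-75-1 (median 0.24) and 3 and 2 with palbociclib (median 0.0027). The shares of all genes tested that rose were 20.3%, 18.4%, 17.9% and 14.5% in turn, and those that fell 20.1%, 18.7%, 18.3% and 13.4%. RAB25, a GTPase of apical recycling, rose in all 4, by 0.79, 0.67, 0.57 and 0.39. The tight junction gene CLDN4 rose by 0.79 and 1.01 in CAMA-1 and was lower with palbociclib in ZR-75-1, at -0.48, and the splicing regulator ESRP1 was lower in all 4, at -0.70, -0.42, -1.06 and -0.50.

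**Figure D3:**
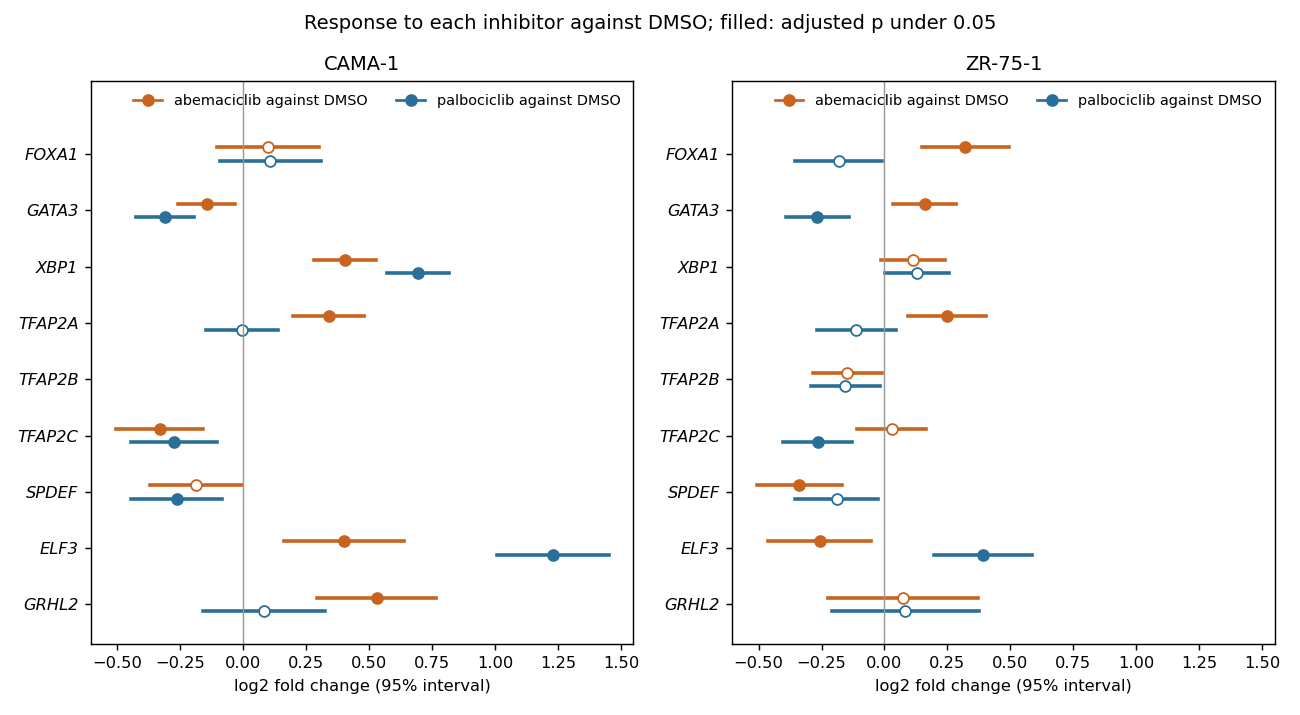
Log2 fold change of each gene with abemaciclib (orange) and palbociclib (blue) against DMSO in CAMA-1 (left) and ZR-75-1 (right); lines are 95% intervals, filled points have an adjusted p under 0.05 and TFAP2B has no value in CAMA-1. ELF3 with palbociclib in CAMA-1 is the farthest from 0, at 1.23, and GATA3 lies on the left of 0 with palbociclib in both lines.

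Of 14 luminal marker genes tested in CAMA-1, 11 were up and 1 down with abemaciclib and 11 up and 0 down with palbociclib (medians 0.50 and 0.74). Among all genes tested in CAMA-1, 20.3% were up and 20.1% down with abemaciclib, and 18.4% and 18.7% with palbociclib. The summed level of the 15 markers was 6971 to 7290.1 CPM with abemaciclib and 7772 to 7871 CPM with palbociclib, above the range with DMSO given earlier. In ZR-75-1 it was 7850.2 to 8237 CPM with abemaciclib and 6976 to 7275 CPM with palbociclib, also above the DMSO range of that line. Keratins KRT7 and KRT8 and the surface protein gene CD24 led, with KRT7 at 1.53 and 1.59, and AGR2, an oestrogen-responsive disulphide isomerase, fell with abemaciclib at -1.54. In ZR-75-1, 6 of 15 were higher and 1 lower with abemaciclib and 5 higher and 3 lower with palbociclib (medians 0.11 and 0.040), led by the carbonic anhydrase gene CA12 at 1.50 and 2.18. Among all genes tested in ZR-75-1, 17.9% were higher and 18.3% lower with abemaciclib, and 14.5% and 13.4% with palbociclib. The basal and mesenchymal markers summed to 9.85 to 11.0 CPM in CAMA-1 with DMSO, 22.2 to 26.5 with abemaciclib and 17.0 to 22.1 with palbociclib, and to 68.1 to 70.1, 40.1 to 49.9 and 41.4 to 54.4 in ZR-75-1. The immune and stromal markers summed to 14.6 to 26.0, 17.2 to 19.7 and 17.0 to 21.4 CPM in CAMA-1 and to 19.9 to 29.6, 23.8 to 34.2 and 25.3 to 30.5 in ZR-75-1. Single markers of these lists moved in CAMA-1. The smooth muscle actin gene ACTA2 rose with both drugs there, from 9, 5 and 5 counts with DMSO to 28, 24 and 24 with abemaciclib and 21, 18 and 17 with palbociclib, and the collagen gene COL3A1 from 2, 5 and 6 to 24, 20 and 12 and 18, 21 and 20 counts. On the log2 scale ACTA2 changed by 2.12 (standard error 0.42, adjusted p = 7.5e-05) and 1.48 (standard error 0.44, adjusted p = 0.007), and COL3A1 by 2.24 (standard error 0.50, adjusted p = 3.0e-04) and 2.12 (standard error 0.49, adjusted p = 5.9e-04). COL1A1, which held most of the counts of the stromal markers, was lower with abemaciclib, at -0.58 (standard error 0.24, adjusted p = 0.047), and gave -0.53 (95% interval -0.99 to -0.064, adjusted p = 0.068) with palbociclib. The part of these markers in the changes of the 9 genes was not tested.

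The 2 inhibitors, given at the same dose and for the same time, were compared directly. At that dose they differed in MKI67, a gene of dividing cells. Its log2 difference, abemaciclib against palbociclib, was -0.87 (adjusted p = 7.4e-07) in CAMA-1 and -4.52 (adjusted p = 4.8e-33) in ZR-75-1 (edgeR). Against DMSO it changed by -3.27 with abemaciclib and -2.40 with palbociclib in CAMA-1, and by -5.88 and -1.36 in ZR-75-1. The part of this in the differences of the 9 genes was not tested. In CAMA-1, 2 of 8 genes were higher with abemaciclib than with palbociclib (TFAP2A and GRHL2) and 2 were lower (ELF3 and XBP1), where 0.796% and 1.53% of all genes were. In ZR-75-1, 4 of 9 were higher (FOXA1, GATA3, TFAP2A and TFAP2C) and 1 was lower (ELF3), where 5.23% and 7.94% of all genes were. TFAP2A and ELF3 were called in both. For TFAP2A the log2 difference, abemaciclib against palbociclib, was 0.34 (95% interval 0.20 to 0.49, adjusted p = 0.002) in CAMA-1 and 0.36 (95% interval 0.20 to 0.52, adjusted p = 5.5e-04) in ZR-75-1, and for ELF3 it was -0.83 (95% interval -1.05 to -0.61, adjusted p = 9.3e-07) and -0.65 (95% interval -0.85 to -0.45, adjusted p = 1.5e-06). FOXA1 differed by 0.50 (95% interval 0.33 to 0.68, adjusted p = 1.3e-05) in ZR-75-1 and by -0.0082 (95% interval -0.21 to 0.19, adjusted p = 0.99) in CAMA-1. GATA3 differed by 0.43 (95% interval 0.30 to 0.55, adjusted p = 5.3e-07) in ZR-75-1 and by 0.16 (95% interval 0.049 to 0.28, adjusted p = 0.14) in CAMA-1, where it missed the threshold although the groups did not overlap. TFAP2C differed by 0.29 (95% interval 0.16 to 0.43, adjusted p = 0.0015) in ZR-75-1 and by -0.058 (95% interval -0.23 to 0.12, adjusted p = 0.86) in CAMA-1. XBP1 differed by -0.29 (95% interval -0.41 to -0.17, adjusted p = 0.0027) in CAMA-1, lost without abemaciclib replicate 3 (-0.24, adjusted p = 0.053), and by -0.014 (95% interval -0.14 to 0.11, adjusted p = 0.93) in ZR-75-1. GRHL2 differed by 0.45 (95% interval 0.21 to 0.68, adjusted p = 0.024) in CAMA-1, a call that DESeq2 (adjusted p = 0.084) and 5 of the 6 fits with a library left out did not make, and by -0.0073 (95% interval -0.30 to 0.29, adjusted p = 0.98) in ZR-75-1. SPDEF gave 0.076 (95% interval -0.11 to 0.26, adjusted p = 0.8) in CAMA-1 and -0.15 (95% interval -0.32 to 0.020, adjusted p = 0.28) in ZR-75-1, and TFAP2B 0.0088 (95% interval -0.13 to 0.15, adjusted p = 0.96) in ZR-75-1. ESR1 was not called between the drugs, at -0.050 (95% interval -0.29 to 0.19, adjusted p = 0.92) in CAMA-1 and 0.19 (95% interval 0.041 to 0.35, adjusted p = 0.087) in ZR-75-1. The comparisons of one line share their libraries.

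**Figure D4:**
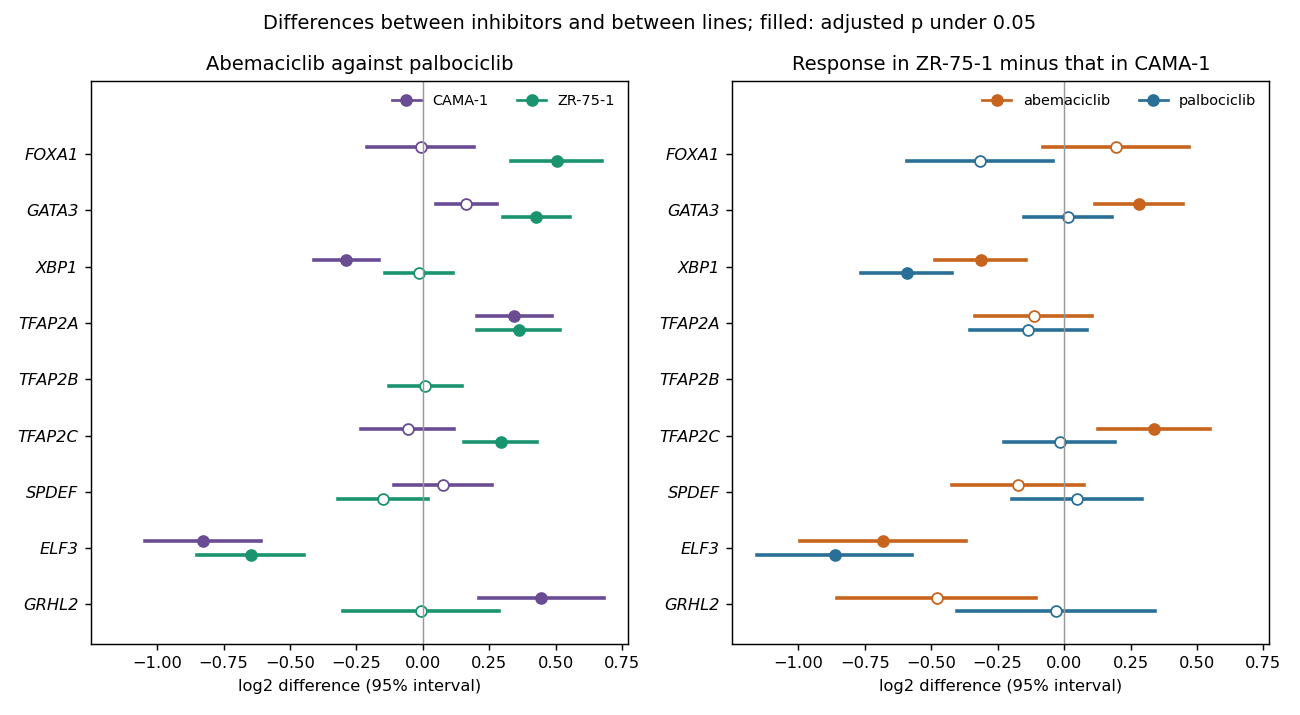
Log2 difference between abemaciclib and palbociclib in CAMA-1 (purple) and ZR-75-1 (green) on the left, and the response to each drug in ZR-75-1 less the CAMA-1 response on the right (abemaciclib orange, palbociclib blue); lines are 95% intervals and filled points have an adjusted p under 0.05. ELF3 lies below 0 in all 4 and TFAP2A lies above 0 on the left in both lines.

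Whether the lines responded differently was tested as an interaction over all 18 libraries, and is given for 8 genes. TFAP2B is left out, since its 0 to 4 counts per library in CAMA-1 give no response there to compare with. With abemaciclib, the response in ZR-75-1 was higher than that in CAMA-1 for 2 genes (GATA3 and TFAP2C) and lower for 2 (XBP1 and ELF3), where 8.19% and 10.0% of 11987 genes were. With palbociclib it was higher for none of the 8 and lower for 2 (XBP1 and ELF3), where 10.0% and 10.3% of all genes were. The median of the 8 was -0.14 and -0.08 and that of all genes -0.03 and -0.02. For ELF3 the log2 difference of responses was -0.68 (standard error 0.16, adjusted p = 8.2e-04) with abemaciclib and -0.86 (standard error 0.15, adjusted p = 5.4e-06) with palbociclib. For XBP1 it was -0.31 (standard error 0.086, adjusted p = 0.0054) and -0.59 (standard error 0.085, adjusted p = 1.7e-07), the first lost without CAMA-1 DMSO replicate 1 or 2, CAMA-1 abemaciclib replicate 2 or ZR-75-1 abemaciclib replicate 1 (-0.24 to -0.25, adjusted p = 0.055 to 0.073), and for GATA3 and TFAP2C with abemaciclib 0.28 (standard error 0.083, adjusted p = 0.01) and 0.34 (standard error 0.11, adjusted p = 0.017). GATA3 fell with palbociclib in both lines, and the difference of these falls was 0.015 (95% interval -0.15 to 0.18, adjusted p = 0.94). TFAP2A rose with abemaciclib in both, and the difference was -0.11 (95% interval -0.33 to 0.10, adjusted p = 0.53). FOXA1 was called in ZR-75-1 alone, yet its difference was 0.20 (95% interval -0.078 to 0.47, adjusted p = 0.36) with abemaciclib and -0.32 (95% interval -0.59 to -0.042, adjusted p = 0.097) with palbociclib, and without CAMA-1 DMSO replicate 3 the abemaciclib difference was 0.41, adjusted p = 0.013, and without replicate 2 of that group the palbociclib difference was -0.41, adjusted p = 0.030. GRHL2, called in CAMA-1 alone, differed by -0.48 (95% interval -0.85 to -0.11, adjusted p = 0.064) and -0.030 (95% interval -0.40 to 0.34, adjusted p = 0.95), with the abemaciclib difference called without ZR-75-1 DMSO replicate 3 or abemaciclib replicate 3 (-0.57 and -0.56, adjusted p = 0.036 and 0.043), and SPDEF by -0.17 (95% interval -0.42 to 0.076, adjusted p = 0.38) and 0.049 (95% interval -0.20 to 0.29, adjusted p = 0.84). The response of ESR1 differed by 0.076 (95% interval -0.22 to 0.37, adjusted p = 0.79) and -0.17 (95% interval -0.46 to 0.12, adjusted p = 0.46).

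Between the lines with DMSO, 4 of the 9 genes were higher in ZR-75-1 (TFAP2B, TFAP2C, XBP1 and ELF3) and 3 lower (TFAP2A, GRHL2 and GATA3), where 31.5% and 29.8% of all 11987 genes were. TFAP2C was 2.68-fold its level in CAMA-1, a log2 difference of 1.42 (standard error 0.074, adjusted p = 7.5e-26), XBP1 2.65-fold at 1.40 (standard error 0.062, adjusted p = 1.7e-29) and ELF3 2.38-fold at 1.25 (standard error 0.11, adjusted p = 1.3e-15). TFAP2A was lower in ZR-75-1 at -0.92 (standard error 0.078, adjusted p = 3.2e-16), GRHL2 at -0.48 (standard error 0.13, adjusted p = 0.0014) and GATA3 at -0.17 (standard error 0.058, adjusted p = 0.0094). FOXA1 and SPDEF were not called, at 0.16 (95% interval -0.039 to 0.35, adjusted p = 0.16) and -0.015 (95% interval -0.19 to 0.16, adjusted p = 0.89). ESR1 in ZR-75-1 was 3.56-fold its CAMA-1 level, at 1.83 (standard error 0.11, adjusted p = 4.1e-23). Ordered by mean level over the 6 groups, XBP1, TFAP2B and TFAP2C had every ZR-75-1 group above every CAMA-1 group and TFAP2A and GRHL2 every CAMA-1 group above every ZR-75-1 group, while for FOXA1, GATA3, SPDEF and ELF3 the groups of the lines were mixed. ELF3 with palbociclib in CAMA-1, 98.1 ± 5.60 CPM, overlapped ELF3 with DMSO in ZR-75-1, 97.8 ± 5.04 CPM (n = 3 each).

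How far the members moved together is described over the 18 libraries, on log2 CPM centred within each line, with no test, since the libraries share 3 treatments and their DMSO groups. The highest Pearson r between members was that of XBP1 and ELF3, 0.82, followed by FOXA1 and TFAP2A, 0.70, and GATA3 and TFAP2C, 0.68. The lowest was that of GATA3 and ELF3, -0.82. Among 6961 genes that averaged 50 counts or more, the 2 most like each member were RPL36A (0.94) and RPL17P6 (0.91) for FOXA1, PURA (0.86) and SSB (0.85) for GATA3, and LGALS3 (0.95) and SDC4 (0.94) for XBP1. They were MTA1 (0.90) and SF3B6 (0.85) for TFAP2A, RPL4P4 (0.78) and POLR1F (0.75) for TFAP2B (whose 9 CAMA-1 libraries, at 0 to 4 counts, lie at or near the floor and bring its counting error into these values), and CTDSPL (0.85) and CUL3 (0.82) for TFAP2C. For SPDEF they were YLPM1 (0.87) and EEF1DP1 (0.85), for ELF3 DUSP4 (0.92) and PDCD4 (0.91), and for GRHL2 RANBP10 and EXT2 (both 0.82). RPL17P6, RPL4P4 and EEF1DP1 are pseudogenes, whose reads can be shared with near-identical copies, and are uncertain.

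Several members overlap a gene on the other strand, and the strand setting of the counting is not given in the sources used here, so reads of such pairs may not be fully told apart. By group mean, GATA3-AS1 read at most 11.8 CPM, TTC6, which overlaps FOXA1, 11.0, ELF3-AS1 4.67, TFAP2A-AS1 1.72 and TFAP2A-AS2 0.740.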

How the data were processed

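Cells were treated for 5 days and libraries were made with a 3′-end mRNA kit. The methods and the labels name the kit's version differently, and strand handling, multi-mapped reads and molecular identifiers are not given in the sources used here. The deposited file holds raw read counts per gene for all 18 libraries: per the labels and the methods, the authors trimmed reads, aligned them to hg38 with STAR 2.7.5b and counted them over annotated genes with featureCounts 2.0.1, without normalization. Rows without a symbol held 0.0704% of counts.

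From these counts, edgeR 4.0.16 in R 4.3.3 (TMM scaling, filterByExpr, glmQLFit and glmQLFTest, Benjamini-Hochberg adjustment over all genes tested) gave the tests. The within-line comparisons were fitted on the 9 libraries of a line (11053 genes in CAMA-1, 11017 in ZR-75-1) and the comparisons between lines on all 18 (11987 genes). CPM values are on the scale of the 18-library fit, so a ratio of them can differ slightly from the fold change of a line fit. SE is the log2 fold change over the root of F, and 95% intervals use the matching t quantile. Depth was 2308442 to 4146549 counts, and the biological coefficient of variation was 8.12 to 8.30%. The scripts were tested on simulated data. Alternatives were RLE and upper-quartile scaling, DESeq2 1.42.0, no filter on low counts, a replicate block, no mitochondrial genes, all 18 libraries in 1 fit and each library left out. Promoter windows are from RefSeq on GRCh38.p14 and gene positions from GENCODE on GRCh38.

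The 9 genes, the gene lists and the tests were chosen with earlier results of these data known. All 9 genes are named in every comparison, the oestrogen receptor gene likewise, and examples from each other list come from its 4 called genes with the largest change in a comparison, of which not all are named. The positions of 1 member are not reported here.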

Additional observations from a re-analysis of the deposited data

Results flagged for a closer look

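In 6 cases the response to a drug differed between the lines by the test of the difference itself (edgeR). The difference is the response in ZR-75-1 less the CAMA-1 response in the fit over 18 libraries. With abemaciclib, 2 of 8 genes were higher and 2 lower, where 8.19% and 10.0% of all genes were. With palbociclib, 0 were higher and 2 lower, where 10.0% and 10.3% of all genes were. ELF3 differed with both drugs, by -0.68 (standard error 0.16, adjusted p = 8.2e-04) on the log2 scale with abemaciclib and -0.86 (standard error 0.15, adjusted p = 5.4e-06) with palbociclib: with abemaciclib its 3 treated libraries were above DMSO in CAMA-1 and below it in ZR-75-1. XBP1 differed by -0.31 (standard error 0.086, adjusted p = 0.0054) with abemaciclib and -0.59 (standard error 0.085, adjusted p = 1.7e-07) with palbociclib, with treated libraries above DMSO in both lines and farther above it in CAMA-1. GATA3 and TFAP2C differed with abemaciclib, by 0.28 (standard error 0.083, adjusted p = 0.01) and 0.34 (standard error 0.11, adjusted p = 0.017). GATA3 was below DMSO in 3 of 3 treated CAMA-1 libraries and above it in 3 of 3 in ZR-75-1. TFAP2C was below DMSO in 3 of 3 in CAMA-1 and overlapped it in ZR-75-1. These positions are a description and not a test. Against DMSO, the abemaciclib calls of GATA3 in each line and of ELF3 in ZR-75-1 were lost in at least 1 alternative. The XBP1 difference with abemaciclib was the only one of the 6 whose call was lost under an alternative: its adjusted p lay between 0.055 and 0.073 without CAMA-1 DMSO replicate 1 or 2, CAMA-1 abemaciclib replicate 2 or ZR-75-1 abemaciclib replicate 1. Groups of 3 libraries are too small for a test of single outlying libraries.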

How the results depend on the processing

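Of 76 values of the 9 genes with a test, 41 were called, and 32 of these kept their call under every alternative run. TFAP2B in the differences of responses between lines is not among the 76. Its call between the lines with DMSO held throughout, at a log2 value of 10.1 to 10.3 in the other settings and 9.62 to 11.2 with a library left out, a fitted value that rests on 4 counts in CAMA-1. No called value changed sign, and no value with a changed sign was called. The 9 calls lost in at least 1 setting were GATA3 with abemaciclib in each line, TFAP2C and SPDEF with palbociclib in CAMA-1, XBP1 and GRHL2 between the drugs in CAMA-1, TFAP2A and ELF3 with abemaciclib in ZR-75-1, and the XBP1 difference between the lines with abemaciclib; the cause was not tested. The number of members called between the drugs in CAMA-1 was 4 and ranged from 2 to 4 with 1 library left out, at 2 without abemaciclib replicate 3. With abemaciclib in ZR-75-1 it was 5 and ranged from 2 to 4: 2 without DMSO replicate 2 and 3 without DMSO replicate 1, abemaciclib replicate 2 or abemaciclib replicate 3. Other counts stayed within 1.5 times.

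Signs turned for uncalled values near 0. Outside the fits with a library left out, these were TFAP2A with palbociclib in CAMA-1 (0.0016 with upper-quartile scaling, 0.0073 without a filter, 0.026 with 18 libraries in 1 fit), XBP1 between the drugs in ZR-75-1 (0.015 with upper-quartile scaling), GRHL2 there (0.0045 with RLE, 0.022 with upper-quartile scaling, 0.0051 with DESeq2), TFAP2C and GRHL2 in the palbociclib difference between lines (0.028 and 0.016 without mitochondrial genes) and SPDEF between the lines (0.025 with upper-quartile scaling). With each library left out in turn, the uncalled values whose sign turned ranged as follows: with abemaciclib in CAMA-1 FOXA1 -0.071 to 0.23, with palbociclib in CAMA-1 FOXA1 -0.065 to 0.24, TFAP2A -0.11 to 0.10 and GRHL2 -0.038 to 0.15, between the drugs in CAMA-1 FOXA1 -0.050 to 0.076, TFAP2C -0.12 to 0.016 and SPDEF -0.013 to 0.15, with abemaciclib in ZR-75-1 GRHL2 -0.014 to 0.18, with palbociclib in ZR-75-1 GRHL2 -0.015 to 0.18, between the drugs in ZR-75-1 XBP1 -0.035 to 0.0087, TFAP2B -0.012 to 0.048 and GRHL2 -0.085 to 0.081, in the abemaciclib difference between lines TFAP2A -0.17 to 0.035, in the palbociclib difference between lines GATA3 -0.00093 to 0.084, TFAP2C -0.033 to 0.062, SPDEF -0.020 to 0.17 and GRHL2 -0.12 to 0.12, between the lines with DMSO FOXA1 -0.047 to 0.23 and SPDEF -0.15 to 0.047.

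The replicate numbers did not pair the samples: correlations of deviations between libraries of the same number lay between -0.056 and 0.037. With the replicate block, GATA3 with abemaciclib was no longer called in CAMA-1 (-0.15, adjusted p = 0.052) or in ZR-75-1 (0.16, adjusted p = 0.054), members called went from 6 to 5 and from 5 to 4 there, and no other call of a member changed. GRHL2 had 94 to 290 counts per library and ELF3 110 to 458, which limits the precision of their values.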

Other observations

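Among relatives of the 9 factors, FOXA3, a forkhead factor of the same family as FOXA1, had 1 count in 1 of the 9 CAMA-1 libraries and 0 in the others, and a count of 0 in a library allows up to 0.723 to 1.30 CPM before TMM scaling. In ZR-75-1 it read 45.7, 38.8 and 43.0 CPM with DMSO, 12.2, 14.9 and 10.6 with abemaciclib and 41.1, 37.2 and 35.2 with palbociclib. The abemaciclib libraries were set far below the other 6, a log2 fold change of -1.75 (standard error 0.18, adjusted p = 5.6e-12) against DMSO and -1.58 (standard error 0.18, adjusted p = 7.3e-10) against palbociclib, while palbociclib against DMSO gave -0.17 (95% interval -0.47 to 0.13, adjusted p = 0.44). FOXA1 was higher in those same libraries, at 0.32 against DMSO.

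EHF, an ETS factor close to ELF3, rose with both drugs in CAMA-1. It read 15.0, 16.7 and 11.7 CPM with DMSO, 38.8, 29.5 and 46.1 with abemaciclib and 50.6, 52.2 and 47.5 with palbociclib, without overlap between any 2 groups, and the log2 fold change was 1.41 (standard error 0.17, adjusted p = 8.5e-09) and 1.79 (standard error 0.17, adjusted p = 7.4e-12). In ZR-75-1 it read 291, 253 and 276, 387, 336 and 327 and 286, 269 and 265 CPM, a change of 0.35 (standard error 0.076, adjusted p = 1.7e-04) with abemaciclib and of -0.0046 (95% interval -0.16 to 0.15, adjusted p = 0.98) with palbociclib. The responses differed between the lines by -1.09 (standard error 0.18, adjusted p = 2.3e-06) and -1.82 (standard error 0.17, adjusted p = 1.9e-13). Of 13 family relatives listed, 4 passed the filter in CAMA-1 and 5 in ZR-75-1, and the calls against DMSO were 1 of 4 with each drug in CAMA-1 (EHF), 2 of 5 with abemaciclib in ZR-75-1 (EHF higher, FOXA3 lower) and 1 of 5 with palbociclib (GRHL1). GRHL1 was lower there, at -0.78 (standard error 0.28, adjusted p = 0.03). In these comparisons in turn, 20.3%, 18.4%, 17.9% and 14.5% of all genes tested were higher and 20.1%, 18.7%, 18.3% and 13.4% lower.

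Among the basal and mesenchymal markers, ACTA2, which rose in CAMA-1, was lower with abemaciclib in ZR-75-1, at 34, 24 and 14 counts with DMSO, 2, 5 and 5 with abemaciclib and 8, 13 and 16 with palbociclib, a log2 fold change of -2.42 (standard error 0.51, adjusted p = 1.2e-04) and of -1.05 (95% interval -1.90 to -0.20, adjusted p = 0.057). The responses differed between the lines by -4.57 (standard error 0.66, adjusted p = 2.3e-07) and -2.55 (standard error 0.62, adjusted p = 0.0013). The N-cadherin gene CDH2 was at or near 0 in CAMA-1 (0, 1 and 0 counts with DMSO) and fell with both drugs in ZR-75-1, from 101, 113 and 96 counts with DMSO to 55, 52 and 41 with abemaciclib and 55, 51 and 64 with palbociclib, a log2 fold change of -0.95 (standard error 0.18, adjusted p = 3.0e-05) and -0.97 (standard error 0.18, adjusted p = 2.1e-05). No treated library overlapped DMSO.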
